A study of Mus musculus musculus x M. m. domesticus and Mus musculus domesticus and Mus musculus with 12 samples.

Results

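*Eif2s3y* (ENSMUSG00000069049_at in the values deposited by the authors) was measured in whole testis of 12 male mice, and it is 1 of 7000 genes with a value in every male. It was selected on its measured values, namely the 3 differences of sterile hybrid males from fertile males and the rank of these differences among all genes. Those differences are therefore given as a description, and only differences among fertile genotypes were tested for this gene. The males fall into 4 genotypes of 3 males each, with the maternal strain written first. *DxD* males (LEWES/EiJ x WSB/EiJ) and *MxM* males (PWK/PhJ x CZECHII/EiJ) are crosses within *M. domesticus* and within *M. musculus*. The fertile hybrid *DxM* had a LEWES/EiJ mother and a PWK/PhJ father, and the sterile hybrid *MxD* came from the same strains with the parents exchanged. All males were F1 animals aged 60 days, and each was measured on 1 array. *DxD* and *DxM* share the LEWES/EiJ mother and thus its X chromosome, while *MxM* and *MxD* share the PWK/PhJ mother. The Y chromosome came from WSB/EiJ in *DxD*, LEWES/EiJ in *MxD*, CZECHII/EiJ in *MxM* and PWK/PhJ in *DxM*, so each genotype carried the Y chromosome of a different strain.

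*Eif2s3y* lies on the Y chromosome and encodes the gamma subunit of eukaryotic initiation factor 2 (eIF2), the complex that brings the initiator methionyl-tRNA to the small ribosomal subunit. Its homologue on the X chromosome, *Eif2s3x*, encodes a closely related protein. In the mouse testis *Eif2s3y* is known for its requirement in the proliferation of spermatogonia, the mitotic germ cells. The X and Y chromosomes are transcriptionally silenced together during meiosis in spermatocytes. Values are log2 expression, in which a difference of 1 is a doubling of the signal.

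*Eif2s3y* was far higher in the sterile *MxD* males than in any fertile male, and the means of the 3 fertile genotypes lay within 0.23 of each other. The *MxD* males measured 9.60, 9.75 and 10.07, with a mean of 9.81 ± 0.24 (SD, n = 3). The *DxD* males measured 7.65, 8.06 and 8.22, with a mean of 7.98 ± 0.29 (SD, n = 3). The *MxM* males measured 7.68, 7.99 and 8.14, with a mean of 7.94 ± 0.24 (SD, n = 3). All 3 *MxD* males thus lay above every male of both crosses within a species. The *DxM* males, which carry the same pair of parental autosome sets as *MxD*, measured 7.48, 7.89 and 7.86, with a mean of 7.75 ± 0.23 (SD, n = 3). Over the 9 fertile males the level ran from 7.48 to 8.22 with a median of 7.89, and the lowest *MxD* male was 1.37 above the highest fertile male. That separation was the largest of the 7000 genes. The next gene had 1.30 and the one after it 0.67, and 383 genes (5.47%) had every *MxD* male above every fertile male. Because the gene was chosen for this difference, nothing is read from its place among them.

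**Figure D1:**
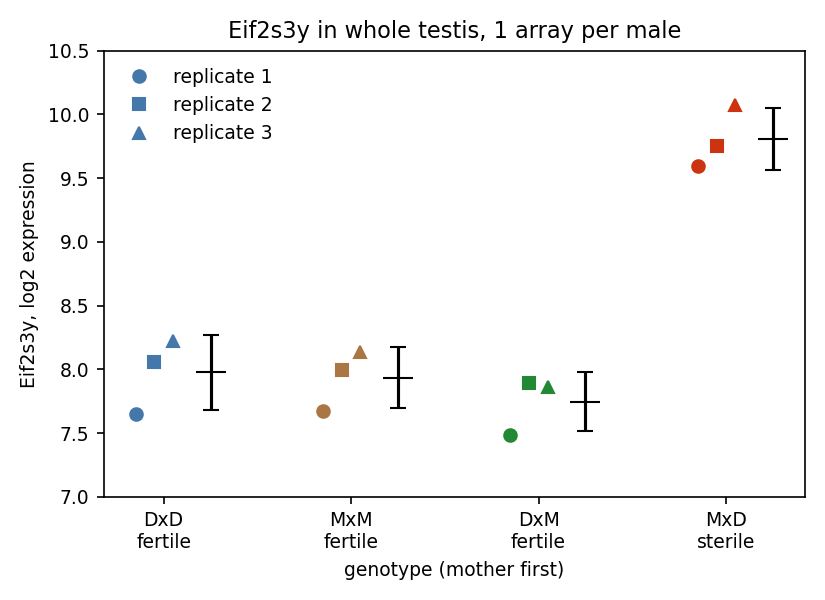
Log2 expression of *Eif2s3y* in each of the 12 males by genotype, with 1 symbol shape per replicate number, and the mean and SD of 3 males as black bars. The *MxD* males lie between 9.60 and 10.07 and the 9 fertile males between 7.48 and 8.22, and replicate 1 is the lowest male of each genotype.

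In whole testis, a change in the number of cells of a type and a change in RNA per cell cannot be told apart. With this limit, *Eif2s3y* was 1.83 higher in *MxD* than in *DxD* (standard error 0.18, 95% interval 1.43 to 2.23), a 3.55-fold signal. It was 1.87 higher than in *MxM* (standard error 0.18, 95% interval 1.47 to 2.27), a 3.66-fold signal. The difference from the reciprocal hybrid *DxM* was 2.06 (standard error 0.18, 95% interval 1.66 to 2.46), a 4.17-fold signal. This last difference was the highest of all 7000 genes between the reciprocal hybrids, where 11 genes were higher in the comparison with *DxD* and 8 in that with *MxM*. All 3 differences exceeded the whole range of the 9 fertile males, which was 0.74. The intervals above leave out the replicate number of the males. With a term for that number in the fit, the 3 differences were the same and their standard error was 0.07.

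The mean of the 3 differences was 1.92, or 3.78-fold, and ranked *Eif2s3y* 3 among 7000 genes. The gene at rank 1 had its mean of 2.18 from a single contrast, with -0.40 from *DxD*, 6.76 from *MxM* and 0.18 from *DxM*. ENSMUSG00000054169 at rank 2 had a mean of 1.98, and ENSMUSG00000068457 at rank 4 had 1.38. The deposited values do not pair identifiers with gene names, and these genes are given by identifier. Only *Eif2s3y* and these 2 genes, 3 genes in all, had each of the 3 differences at 1 or more, and 1 gene had each at -1 or less. By the smallest of its 3 differences, *Eif2s3y* was at rank 1.

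Genotypes that share the subspecies of a parent can be set side by side. The genotypes with a *M. domesticus* Y chromosome, *MxD* and *DxD*, differed by 1.83, while those with a *M. musculus* Y chromosome, *DxM* and *MxM*, differed by -0.19. With the PWK/PhJ mother, *MxD* and *MxM* differed by 1.87, and with the LEWES/EiJ mother, *DxM* and *DxD* differed by -0.23. Against the mean of *DxD* and *MxM*, which was 7.96, *MxD* was 1.85 higher and *DxM* was at -0.21. The values with *MxD* were not tested, since the gene was chosen on them, and the differences of *DxM* from *DxD* and *MxM* are tested below.

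Among the fertile genotypes the order of the means was *DxM*, *MxM* and *DxD* from low to high. In the fit by genotype alone no pair passed the test. In the fit that also allowed for the replicate number, the pair *DxM* and *DxD* passed. The comparisons among fertile genotypes ask whether *Eif2s3y* differs between males with normal fertility. They are not among the differences named in the choice of the gene, although the values of the fertile males enter those differences too. Genes were tested with limma over all 7000 genes with Benjamini-Hochberg adjustment at 5%. Between *DxD* and *MxM* the difference was 0.04 (standard error 0.18, 95% interval -0.36 to 0.44, limma adjusted p = 0.882), where 31.9% of all genes passed in either direction. In absolute size it was smaller than the difference of 6143 genes. Its sign turned without *DxD* replicate 3 (-0.081) and without *MxM* replicate 1 (-0.088). The difference between *DxM* and *MxM* was -0.19 (95% interval -0.59 to 0.21, limma adjusted p = 0.527), where 16.9% of genes passed.

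The difference between *DxM* and *DxD* was -0.23 (95% interval -0.63 to 0.17, limma adjusted p = 0.489), where 12.1% of genes passed. With the replicate number as a block it passed, with a limma adjusted p of 0.0409 and a 95% interval of -0.39 to -0.08. The block left the difference itself as it was and lowered the standard error from 0.18 to 0.07. With the block, the difference between *DxM* and *MxM* had a limma adjusted p of 0.0713. The intervals without the block leave room for a difference of up to 0.63 between fertile genotypes. Those with the block reach 0.39 in size.

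**Figure D2:**
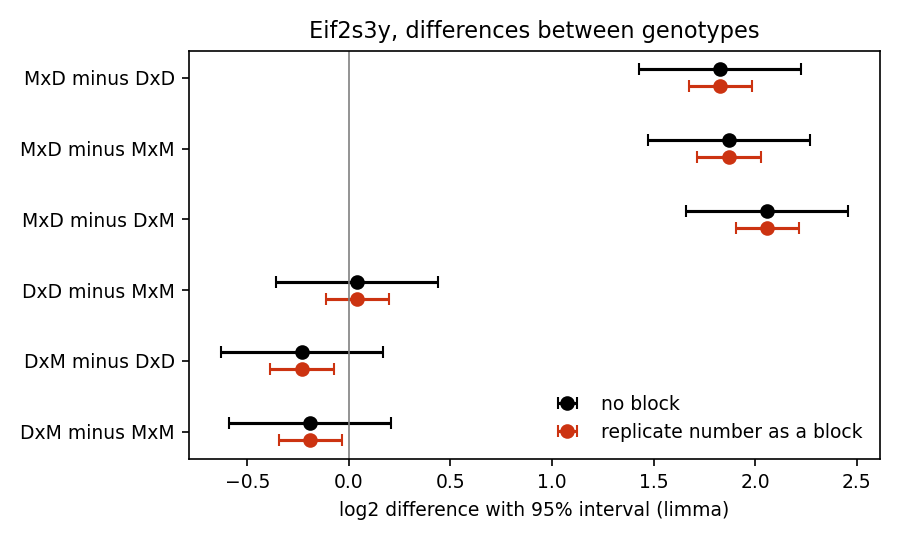
Log2 differences of *Eif2s3y* for the 6 pairs of genotypes with their 95% intervals from limma, without (black) and with (red) the replicate number as a block. The 3 differences of *MxD* lie between 1.83 and 2.06 and those among fertile genotypes between -0.23 and 0.04.

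The spread of *Eif2s3y* within genotypes went largely with the replicate number. Replicate 1 was the lowest male in all 4 genotypes, at -0.27 on average from the genotype means, with replicate 2 at 0.06 and replicate 3 at 0.21. Of the 7000 genes, 1449 (20.7%) also had replicate 1 as the lowest male in all 4 genotypes, and in 1050 it was the highest in all 4. What the replicate number marks is not stated, and its part in the level was not tested. The SD of *Eif2s3y* was larger than that of 89.1% of genes in the *MxD* males, and of 98.1%, 77.3% and 92.3% in *DxD*, *MxM* and *DxM*.

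Between males of the same number, the difference of *MxD* from a fertile genotype was stable. For replicate 1 it was between 1.92 and 2.11 over the 3 fertile genotypes. For replicate 2 it was between 1.69 and 1.86, and for replicate 3 between 1.85 and 2.21. All 9 such differences were above 1.5, and the fertile males of 1 number spanned only 0.19, 0.17 and 0.36 for replicates 1, 2 and 3. Of the arrays, that of *MxM* replicate 3 stood apart, with 131 genes at least 1 below every other male, where the other arrays had 4 at most. Without it *Eif2s3y* was 1.97 higher in *MxD* than in *MxM*.

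The gene whose pattern over the 12 males was most like that of *Eif2s3y* was ENSMUSG00000068457. Likeness was taken as the smallest root mean square difference between the deviations of both genes from their own means over the 12 males, which was 0.27 here and 0.88 for the median gene. Its *MxD* males lay between 5.67 and 6.31, and its genotype means were 5.99 ± 0.32 in *MxD*, 4.66 ± 0.32 in *DxD*, 4.66 ± 0.39 in *MxM* and 4.52 ± 0.07 in *DxM* (SD, n = 3 each). It was 1.34, 1.33 and 1.48 higher in *MxD* than in *DxD*, *MxM* and *DxM*, which is less than *Eif2s3y* in each comparison. Like *Eif2s3y*, it had its lowest *MxD*, *DxD* and *MxM* male in replicate 1. In *DxM* its lowest male was replicate 3.

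ENSMUSG00000054169 was the next most alike, with a root mean square difference of 0.37. It measured 6.15, 6.73 and 6.37 in the *MxD* males, with a mean of 6.41 ± 0.29 (SD, n = 3). Its means were 4.22 ± 0.15 in *DxD*, 4.44 ± 0.35 in *MxM* and 4.62 ± 0.19 in *DxM* (SD, n = 3 each). Its difference was larger than that of *Eif2s3y* against *DxD*, at 2.19, and against *MxM*, at 1.97, and smaller against *DxM*, at 1.79. Both genes were among the dimmest of the arrays in fertile males, at most at percentile 1.01 of an array, so their differences may be limited by the lowest level an array can give. *Eif2s3y* lay between percentiles 34.9 and 51.9 in fertile males and between 77.7 and 84.1 in *MxD*, away from both ends. Within 0.5 of *Eif2s3y* by this measure were 5 genes, none of them with a name here. Their chromosomes were not given in the part of the study's gene table that was read. Whether any of them is sex-linked was not examined. With Pearson correlation over the 12 males as the measure, 2 of these 5 remained among the 5 most alike, and with genotype means only 4 remained.

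**Figure D3:**
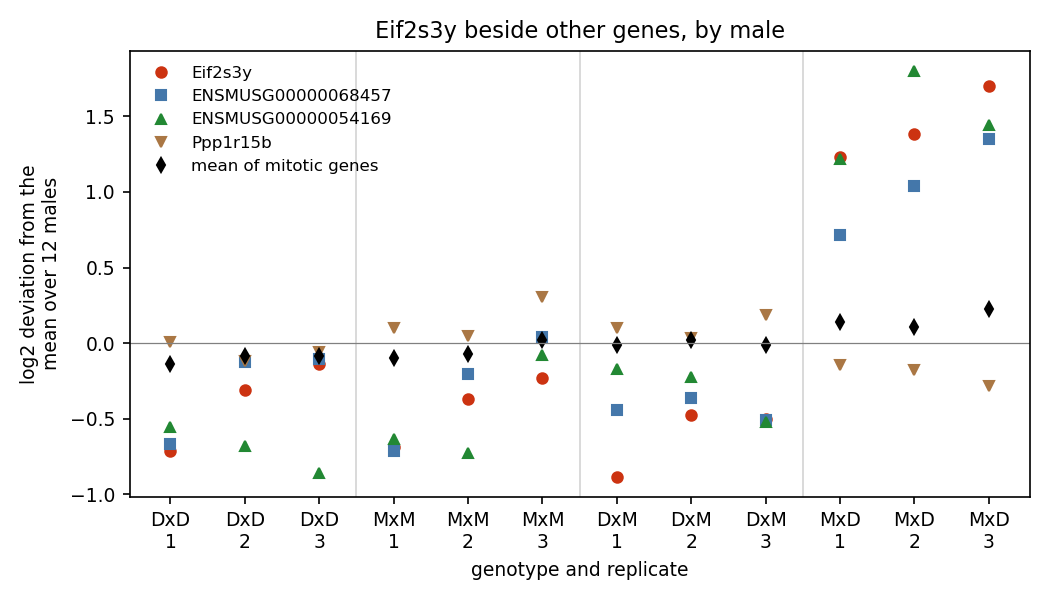
Log2 deviation from the gene's own mean over 12 males, by genotype and replicate, for *Eif2s3y*, the 2 genes most like it, *Ppp1r15b* and the mean of 367 mitotic genes. *Eif2s3y* lies at 1.23 to 1.70 in *MxD* and below 0 in every fertile male, while the mitotic mean stays between -0.14 and 0.22.

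Because *Eif2s3y* has a known role in spermatogonia, genes of the study's mitotic class were set beside it. Of the study's gene table, 1997 rows on chromosomes 1 to 5 were read, and 1102 of them give the testis cell type in which a gene is most induced. The study states that this class need not mean expression restricted to that cell type. Sertoli cells are the only somatic population among the study's classes. Whether the mitotic class holds genes of other somatic cells was not tested. *Eif2s3y* is not in the rows read, so the name of spermatogonial factor could not be checked against a cell type. Whole testis holds all cell types. The mean of the 3 *MxD* differences had a median of 0.21 over the 367 genes most induced in mitotic cells, beside 0.0013 over all 7000 genes. It ran from -0.55 to 1.04 and was above 0 in 320 of the 367 genes (87.2%), beside 50.2% of all genes. None of the 367 reached the 1.92 of *Eif2s3y*, and 1 reached 1, beside 7 of all 7000 genes. *Eif2s3y* was chosen for its rank, 3 of 7000, so nothing is read from its place above the class.

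Mitotic genes passed the test more often in the higher direction than genes overall. Against *DxD*, 144 of 367 mitotic genes (39.2%) were higher in *MxD* by limma after Benjamini-Hochberg adjustment at 5%, beside 15.9% of all genes, and 11 were lower, beside 15.1%. Against *MxM*, 116 (31.6%) were higher, beside 13.0%, and 12 were lower, beside 17.3%. Against *DxM*, 28 (7.63%) were higher, beside 3.00%, and 4 were lower, beside 3.50%. The 3 comparisons share the *MxD* males. In the fit blocked by replicate number the 28 became 81 (22.1%), beside 8.33% of all genes. With limma on only *MxD* and *MxM*, the 116 became 56 (15.3%), beside 5.94% of all genes. The mean variance within a genotype was 0.088 in *MxM*, and between 0.015 and 0.028 in the other genotypes. The main fit takes a single spread per gene for all genotypes and so does not allow for this. Tests gene by gene, without limma's sharing of variance across genes, left fewer. With unequal variances and the same adjustment there were 47, 1 and 0 mitotic genes higher than in *DxD*, *MxM* and *DxM*, of 354, 1 and 0 over all genes, and 157, 82 and 69 mitotic genes at an unadjusted p under 0.05. With equal variances there were 103, 17 and 0 mitotic genes, of 786, 152 and 4, and 173, 102 and 89 at an unadjusted p under 0.05. Without *MxD* replicate 3 the 3 counts of higher genes were 91, 76 and 6. The count against *DxM* was 12, 17 and 8 without *DxM* replicate 1, 2 and 3, 18 without *DxD* replicate 2 and 46 without *MxM* replicate 3. For counts with males left out and counts at an unadjusted p, the share of all genes is not given here. Whether mitotic genes differed from genes overall in those counts is therefore not shown.

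The level of mitotic genes thus moved in the same direction as *Eif2s3y*, by less. Per male, the mean deviation of the 367 genes was 0.10 to 0.22 in *MxD*, -0.14 to -0.08 in *DxD*, -0.10 to 0.02 in *MxM* and -0.02 to 0.02 in *DxM*. With each male's mitotic mean subtracted from its *Eif2s3y* deviation, the difference of *MxD* was 1.57 from *DxD*, 1.66 from *MxM* and 1.90 from *DxM*. The mitotic mean is not a measure of cell number, so this subtraction does not correct for the number of mitotic cells. The postmeiotic genes (round spermatids) moved the other way, with a median of -0.23 over 269 genes. Of them 27 (10.0%) were above 0, beside 50.2% of all genes. The 324 meiotic genes (spermatocytes) had a median of -0.06 and the 142 somatic genes (Sertoli cells) 0.11. The highest value was 0.93 among meiotic genes, 0.51 among postmeiotic genes and 0.61 among somatic genes. The part of these cell types in the level of *Eif2s3y* was not tested.

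**Figure D4:**
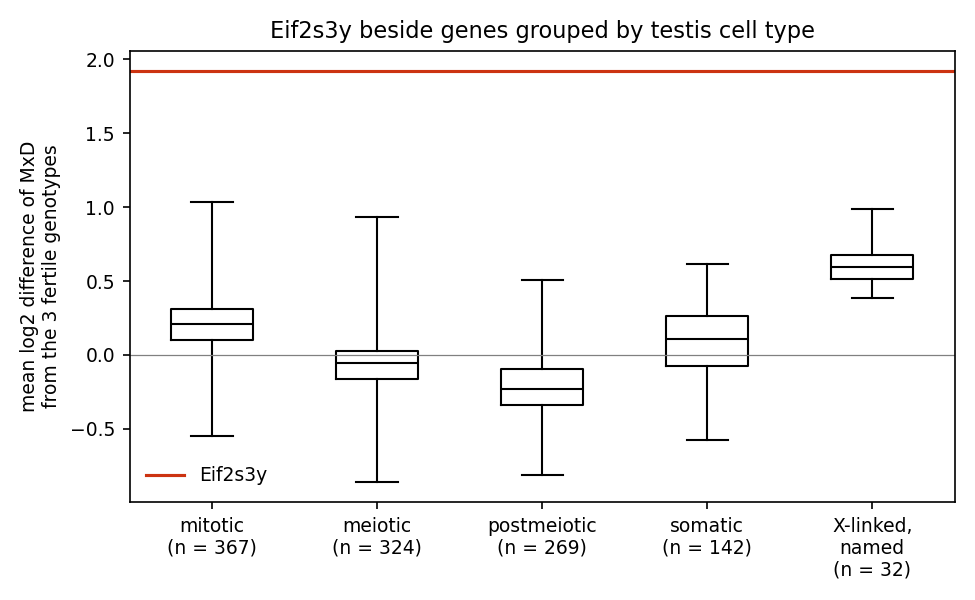
Mean log2 difference of *MxD* from the 3 fertile genotypes for genes grouped by testis cell type (rows of the study's table that were read) and for 32 named X-linked genes. Boxes show quartiles and median and whiskers the lowest and highest gene. The red line at 1.92 is *Eif2s3y*, above every gene shown. *Eif2s3y* was chosen for its rank among all genes, so this place is a description.

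The sex chromosomes share their silencing in meiosis, and 32 X-linked postmeiotic genes are named in the study. The study chose these genes for higher expression in the same *MxD* males, so their values are a description. The mean of their 3 *MxD* differences ran from 0.39 to 0.99 with a median of 0.59. None of the 32 reached *Eif2s3y*, which was itself chosen for its rank among all genes. The highest of them was *1110059M19Rik* (X chromosome, start 42444081, NCBI build 37), with a mean difference of 0.99 and differences of 1.25 from *DxD*, 0.29 from *MxM* and 1.44 from *DxM*. Unlike *Eif2s3y*, whose differences from *DxD* and *MxM* were alike, this gene differed by -0.96 between *DxD* and *MxM*. Besides *Eif2s3y*, names were available only for 45 genes that the study chose on these males, 32 of them these X-linked genes. Among those 45, the gene most like *Eif2s3y* over the 12 males was the X-linked *1700013H16Rik*, with a root mean square difference of 0.54. The pool was mostly X-linked and this gene was at place 12 of all genes by this measure, so nothing is read from its chromosome. It measured 8.63 ± 0.15 in *MxD*, 8.12 ± 0.12 in *DxD*, 7.86 ± 0.19 in *MxM* and 7.78 ± 0.17 in *DxM* (SD, n = 3 each).

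Of 52 genes of translation initiation listed for this report, *Eif2s3y* and *Ppp1r15b* could be matched to an identifier. *Eif2s3x* and the other eIF2 subunits were not analysed here. Whether the probes of *Eif2s3y* also bind *Eif2s3x* transcripts, or bind the transcripts of the 4 strains' Y chromosomes unequally, was not tested. *Ppp1r15b* (ENSMUSG00000046062, chromosome 1, start 135027960, NCBI build 37) encodes a regulatory subunit of the phosphatase that removes phosphate from the alpha subunit of eIF2. The study's table lists it as mitotic, and it is among the genes that the study chose on these males for lower expression in *MxD*, so its direction is not independent evidence.

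*Ppp1r15b* moved opposite to *Eif2s3y*, and by much less. It measured 7.19, 7.15 and 7.05 in *MxD*, and the lowest fertile male, in *DxD*, measured 7.21. The study chose the gene on these males for lower expression in *MxD*. This order, and the p-values and calls below, are therefore a description and no evidence of a difference. The means were 7.13 ± 0.07 in *MxD*, 7.28 ± 0.06 in *DxD*, 7.48 ± 0.14 in *MxM* and 7.44 ± 0.07 in *DxM* (SD, n = 3 each). The difference of *MxD* was -0.35 from *MxM* (standard error 0.08, limma adjusted p = 0.0079), where 17.3% of all genes were called lower. From *DxM* it was -0.31 (standard error 0.08, limma adjusted p = 0.0468), where 3.50% of all genes were called lower. From *DxD* it was -0.15 (limma adjusted p = 0.195), which did not pass. The call against *DxM* was lost in 10 of the 12 fits that leave out 1 male, with a limma adjusted p of up to 0.188 (without *MxD* replicate 3), and it held without *MxM* replicate 1 or *MxM* replicate 3. The call against *MxM* held in all 12, and was lost with limma on only these 2 genotypes (adjusted p = 0.0588) and with the tests gene by gene, adjusted over all genes, with unequal (adjusted p = 0.17) or equal variances (adjusted p = 0.104).

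Of the markers of other testis cells listed for this report, *Cyp17a1* (ENSMUSG00000003555, chromosome 19, start 46741676, NCBI build 37) could be matched. It encodes an enzyme of androgen synthesis in Leydig cells, though the study's table lists it as postmeiotic. It was 1.09 higher in *MxD* than in *DxD* (limma adjusted p = 0.0103), 1.26 higher than in *MxM* (limma adjusted p = 0.0053) and 0.67 higher than in *DxM* (limma adjusted p = 0.175). The last of these did not pass. *Cyp17a1* too was chosen by the study on these males, so its p-values are a description. Its part in the level of *Eif2s3y* was not tested.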

How the data were processed

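Testis RNA of 12 males, 1 array each, was measured on Affymetrix mouse arrays designed from the C57BL/6 genome. Per the study's methods, the authors combined probes into Ensembl genes (BRAINARRAY version 11, PLIER), left out genes not detected in every male, and applied quantile normalization. Values are log2 expression as deposited by the authors, and the sorted values of all arrays were the same (median 8.14). There is no read depth in array data, and the number of arrays sets the precision. Positions and cell types were taken from the study's tables (Ensembl version 52, NCBI build 37).

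Two-sided tests used limma 3.58.1 (R 4.3.3) with a term for each genotype and Benjamini-Hochberg adjustment at 5% over 7000 genes. The fit had first been tested on simulated data. The simulated males were independent of each other, with the same SD of a gene in all genotypes. That test therefore does not cover the link between males of the same number or the larger spread in *MxM*. Matplotlib 3.10.9 (Python 3.11.15) drew the figures. The study's methods name Student's t-tests. The alternatives comprised gene-by-gene t-tests with unequal and, added after seeing the data, equal variances, other limma settings, a filter on dim genes, shifted arrays and each male left out in turn.

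*Eif2s3y* and all lists were chosen with earlier results of these data known. Of 152 list symbols, 3 could be matched to identifiers. Lists of translation initiation and spermatogonial genes were therefore replaced, after seeing the file, by *Ppp1r15b* and the mitotic genes of the study's table. Named genes were *Eif2s3y*, its neighbours in rank, the genes most like it (of 5, the first 2) and matched list members. *1110059M19Rik* and *1700013H16Rik* were added after their values were seen.

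Labels do not say whether males share a litter, and p-values measure the spread between these males. To check the pairing, deviations from genotype means were correlated across genes between males of the same number. This r ran from 0.151 to 0.756 between *MxD* and fertile genotypes and from 0.162 to 0.754 between *DxM* and *DxD*. In these pairs, males of the same number deviated together to some degree. The main fit leaves this out, and the fit with the replicate number as a block allows for it. Among the other fertile pairs the lowest r was -0.0511. The pairing comes from these values only.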

Additional observations from a re-analysis of the deposited data

How the results depend on the processing

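The 3 *MxD* differences of *Eif2s3y* kept their direction and moved by less than the spread between males under every alternative tried. The block, the filter on dim genes and leaving out a male of a genotype not compared cannot change such a difference. Every *MxD* male lay above every fertile male, so leaving out males could not turn a direction. The gene was selected on these differences, so their stability is a description. With each male left out in turn the 3 differences were 1.66 to 1.95 from *DxD*, 1.74 to 1.98 from *MxM* and 1.93 to 2.17 from *DxM*. Without all replicate 1 males, a setting added after seeing the data, they were 1.77, 1.85 and 2.03. The rank was 2 or 3 throughout. Among fertile genotypes, the difference between *DxD* and *MxM* ran from -0.088 to 0.21 with 1 male left out, reversed without *DxD* replicate 3 (-0.081) and *MxM* replicate 1 (-0.088), and passed in none of these fits. Between *DxM* and *DxD*, where the difference was -0.23, only the replicate block gave an adjusted p under 5% (0.0409). The block changed no other call of *Eif2s3y*.

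The counts of mitotic genes higher in *MxD* depended on the test. A t-test with unequal variances gave 47 against *DxD* (12.8%, beside 5.06% of all genes), 1 against *MxM* and 0 against *DxM* after adjustment. Over all genes, the count was 1 against *MxM* and 0 against *DxM*. At an unadjusted p under 0.05 this t-test gave 157, 82 and 69 mitotic genes. With equal variances, added after seeing the data, it gave 103 (28.1%), 17 (4.63%) and 0, beside 11.2%, 2.17% and 0.0571% of all genes. Its counts at an unadjusted p under 0.05 were 173, 102 and 89. Limma on only the 2 genotypes compared gave 56 against *MxM* (15.3%, beside 5.94% of all genes). Against *DxM* the count was 81 with the replicate block (22.1%, beside 8.33% of all genes). It was 9 without all replicate 1 males and 107 at an unadjusted limma p under 0.05. With 1 male left out the counts were 91 to 178, 76 to 130 and 6 to 46. Counts with males left out and at an unadjusted p have no share of all genes beside them. For *Ppp1r15b* the call against *DxM* was also lost with the t-test of unequal (adjusted p = 0.225) and equal variances (0.132), the fit of 2 genotypes (0.0734), the trend and robust prior (0.0567) and without all replicate 1 males (0.134). The study chose this gene on these males, so its calls are a description. Its call against *MxM* was lost with the same tests (0.17 and 0.104) and the fit of 2 genotypes (0.0588). The causes were not tested. The planned counts over translation initiation and spermatogonial lists were not run, because their symbols could not be matched. No *Eif2s3y* level was near the lowest level of the arrays.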
